A study of Arabidopsis thaliana with 36 samples.

Results

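The transcripts described here come from 9 genes of Arabidopsis thaliana that serve as markers of a low sugar supply, out of 32833 genes in the count table. They are a fixed set of gene identifiers with no threshold on their values, although earlier results of these data were known when the set was drawn up. They are the dark-inducible genes DIN6 (AT3G47340), SEN1 (AT4G35770), DIN10 (AT5G20250) and BGLU30 (AT3G60140), the kinase subunit gene AKINBETA1 (AT5G21170), and the class II trehalose-phosphate synthase genes TPS8 (AT1G70290), TPS9 (AT1G23870), TPS10 (AT1G60140) and TPS11 (AT2G18700). RNA-seq was done on shoots and on roots of 11-day-old seedlings in 6 groups per tissue with 3 libraries each, 36 libraries in all. The groups were tpst seedlings given 10 nM phytosulfokine (PSK) for 30 min, 2 h, 5 h or 11 days, untreated tpst seedlings, and untreated Col-0, the wild type. All plants of a library were pooled seedlings grown in liquid medium with sucrose under long days. PSK is a short secreted peptide that acts only after its tyrosines are sulfated. The tpst line is a single T-DNA insertion line in the Col-0 background that lacks tyrosylprotein sulfotransferase, so it makes neither active PSK nor the other sulfated peptides. For the exposures of 5 h or less, old medium was exchanged for fresh medium with PSK. The 11-day plants germinated in PSK, and the untreated plants kept their medium. A short exposure to PSK and the fresh medium can therefore not be told apart.

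In plants the kinase SnRK1 becomes active when carbon runs short, and it is held back by trehalose 6-phosphate, a sugar phosphate that follows the sucrose level. Active SnRK1 raises transcripts for the breakdown of stored carbon and amino acids, and the DIN genes and AKINBETA1 are widely used readouts of this state. Class II TPS proteins resemble the enzyme that makes trehalose 6-phosphate but are thought to be regulators, and transcripts of TPS8 to TPS11 are known to fall when sugar is supplied. DIN6 encodes an asparagine synthetase, which stores nitrogen when carbon is scarce. SEN1 is a marker of darkness and senescence, DIN10 belongs to the raffinose synthase family, BGLU30 encodes a beta-glucosidase, and AKINBETA1 encodes a beta subunit of SnRK1.

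The libraries held 21559655 to 36921510 counts. TPST, the gene that carries the insertion, was at 5.17 to 8.28 CPM (counts scaled to the size of the library) in the 15 tpst shoot libraries and 15.0 to 17.6 CPM in the 3 Col-0 shoot libraries, and at 11.4 to 16.6 CPM in the tpst root libraries against 27.5 to 29.1 CPM in Col-0 roots. Transcripts of 26 green tissue genes summed to 355 to 2580 CPM in roots and 47400 to 84800 CPM in shoots, and those of 6 root genes summed to 5450 to 9200 CPM in roots and 668 to 1250 CPM in shoots. The third untreated tpst root library was the one at 2580 CPM of green transcripts, while the other 17 root libraries had 355 to 1130 CPM. Clock genes also moved with the groups. The median level of 11 clock genes that peak around dawn in shoots was 9.93 to 13.2 CPM in untreated tpst, 14.2 to 18.2 CPM at 30 min, 33.6 to 35.0 CPM at 2 h, 60.1 to 72.4 CPM at 5 h and 69.6 to 81.7 CPM at 11 days of PSK, and 6.37 to 7.04 CPM in Col-0. In roots it was 6.05 to 6.69 CPM in untreated tpst, 6.92 to 8.60 CPM at 30 min, 9.69 to 11.6 CPM at 2 h, 27.1 to 34.1 CPM at 5 h and 26.5 to 32.8 CPM at 11 days, and 7.19 to 7.50 CPM in Col-0. The hour of harvest is not given in the sources used here, and the part of the clock in the results was not tested.

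The bases just before the gene starts are shown for 5 genes that the results turn on. They are SEN1 and AKINBETA1, which had the smallest adjusted p at 5 h of PSK in shoots, and TPS8, TPS9 and TPS11, whose levels moved closely together. Each stretch is the 250 bases before the annotated start, read from TAIR10.1, where the coordinates of all 9 genes are the same as in the count table. The stretches lie at chr4:16944628-16944877 on the plus strand (SEN1), chr5:7205227-7205476 on the plus strand (AKINBETA1), chr1:26474834-26475083 on the minus strand (TPS8), chr1:8431929-8432178 on the plus strand (TPS9) and chr2:8108648-8108897 on the plus strand (TPS11). Capitals mark TTATCC (the sugar-repressive element), TATCCA (the amylase box), and ACGT (the core bound by bZIP factors), each on either strand.
SEN1: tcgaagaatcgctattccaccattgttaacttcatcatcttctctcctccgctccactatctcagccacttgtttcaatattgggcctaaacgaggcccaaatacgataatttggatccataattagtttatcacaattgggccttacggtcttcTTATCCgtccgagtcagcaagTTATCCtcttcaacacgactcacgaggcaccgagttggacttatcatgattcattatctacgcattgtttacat
AKINBETA1: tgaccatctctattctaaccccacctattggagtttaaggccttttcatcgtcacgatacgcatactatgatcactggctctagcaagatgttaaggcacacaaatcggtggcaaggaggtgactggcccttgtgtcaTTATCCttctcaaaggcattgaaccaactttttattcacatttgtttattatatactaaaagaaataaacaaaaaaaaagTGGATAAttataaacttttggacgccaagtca
TPS8: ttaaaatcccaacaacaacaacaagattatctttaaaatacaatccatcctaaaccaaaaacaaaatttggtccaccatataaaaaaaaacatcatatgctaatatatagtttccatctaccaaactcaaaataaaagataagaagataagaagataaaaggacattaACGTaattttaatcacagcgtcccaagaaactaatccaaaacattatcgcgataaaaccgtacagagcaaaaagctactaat
TPS9: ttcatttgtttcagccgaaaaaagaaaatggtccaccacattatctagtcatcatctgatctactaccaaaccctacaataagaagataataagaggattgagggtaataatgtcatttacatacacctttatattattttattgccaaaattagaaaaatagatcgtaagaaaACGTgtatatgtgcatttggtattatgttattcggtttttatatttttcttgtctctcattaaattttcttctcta
TPS11: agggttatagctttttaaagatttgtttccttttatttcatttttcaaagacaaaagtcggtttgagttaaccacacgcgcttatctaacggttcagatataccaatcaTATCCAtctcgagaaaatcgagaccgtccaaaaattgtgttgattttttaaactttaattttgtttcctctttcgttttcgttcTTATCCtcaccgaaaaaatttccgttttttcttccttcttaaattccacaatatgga
SEN1 and AKINBETA1 each held 2 copies of TTATCC, and in AKINBETA1 1 of these overlapped a TATCCA. TPS11 held 1 copy each of TTATCC and TATCCA, whereas TPS8 and TPS9 each held 1 ACGT, at 82 and 76 bases before the start. Of the 9 genes, 4 held TTATCC (SEN1, AKINBETA1, TPS11 and DIN6), against 12.5% of 27413 stretches of this length before protein-coding genes. TATCCA was found in 4 of the 9 against 13.6% of all, and ACGT in 5 of the 9 against 44.1%. CACGTG, the G-box, which contains an ACGT, was found before DIN6 alone, against 6.48% of all. AAATATCT, the evening element of clock-regulated genes, was before none of the 9, against 4.79% of all. BGLU30 held none of the 5 motifs in this window. These matches are descriptions of the letters only.

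In Col-0, the levels of the 9 genes covered a wide range. Per length (RPKM, all 36 libraries normalized together), DIN10 was the highest in both tissues, with a level of 157 ± 13.5 RPKM in roots and 208 ± 32.0 RPKM in shoots (SD, n = 3 each, here and for all RPKM). In roots TPS9 followed with 46.4 ± 6.17 RPKM. DIN6 at 21.2 ± 4.39, TPS8 at 18.2 ± 2.44, TPS10 at 18.1 ± 1.01, AKINBETA1 at 17.1 ± 1.5 and TPS11 at 14.8 ± 4.0 RPKM came next in roots, and neighbours in this order lay within their spread. SEN1 at 2.90 ± 0.367 and BGLU30 at 0.568 ± 0.125 RPKM were the lowest in roots. In shoots SEN1 at 22.0 ± 4.16, TPS9 at 21.2 ± 2.22, TPS8 at 20.2 ± 4.63, TPS10 at 19.6 ± 0.987 and AKINBETA1 at 19.2 ± 1.61 RPKM could not be separated, and TPS11 lay below them at 12.2 ± 0.954 RPKM. DIN6 at 2.37 ± 0.838 and BGLU30 at 0.0253 ± 0.0267 RPKM were the lowest in shoots.

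The tissues of Col-0 differed in 4 of the 9 genes. A gene is called, throughout, when its fold reaches 2 and its adjusted p is below 0.05 in the quasi-likelihood test of edgeR. On the scale of all 36 libraries, DIN6 had 49.6, 52.9 and 72.0 CPM in Col-0 roots against 3.84, 7.74 and 7.90 CPM in Col-0 shoots, and the log2 fold change was 3.16 ± 0.265 (± SE, as for every fold change, adjusted p = 2.02e-11). TPS9 was also higher in roots, with 120, 136 and 157 CPM against 70.5, 57.6 and 61.4 CPM in shoots, a log2 fold change of 1.13 ± 0.258 (adjusted p = 0.000348). BGLU30 had 51, 33 and 28 counts in Col-0 roots against 0, 3 and 1 counts in Col-0 shoots. Its summed ratio was 20.9, with an exact 95% interval of 7.96 to 78.2 that covers counting error only. SEN1 was the one gene lower in roots, with 3.21, 4.03 and 4.05 CPM against 25.3, 34.8 and 25.6 CPM in shoots, a log2 fold change of -2.93 ± 0.372 (adjusted p = 7.47e-08). For each of these 4 genes the tissues did not overlap. Of all 22303 genes tested, 21.5% were called higher and 19.8% lower in Col-0 roots, so 3 higher and 1 lower of 9 is not far from the share of genes at large. In bulk tissue, fewer cells of a type and less RNA per cell cannot be told apart.

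**Figure D1:**
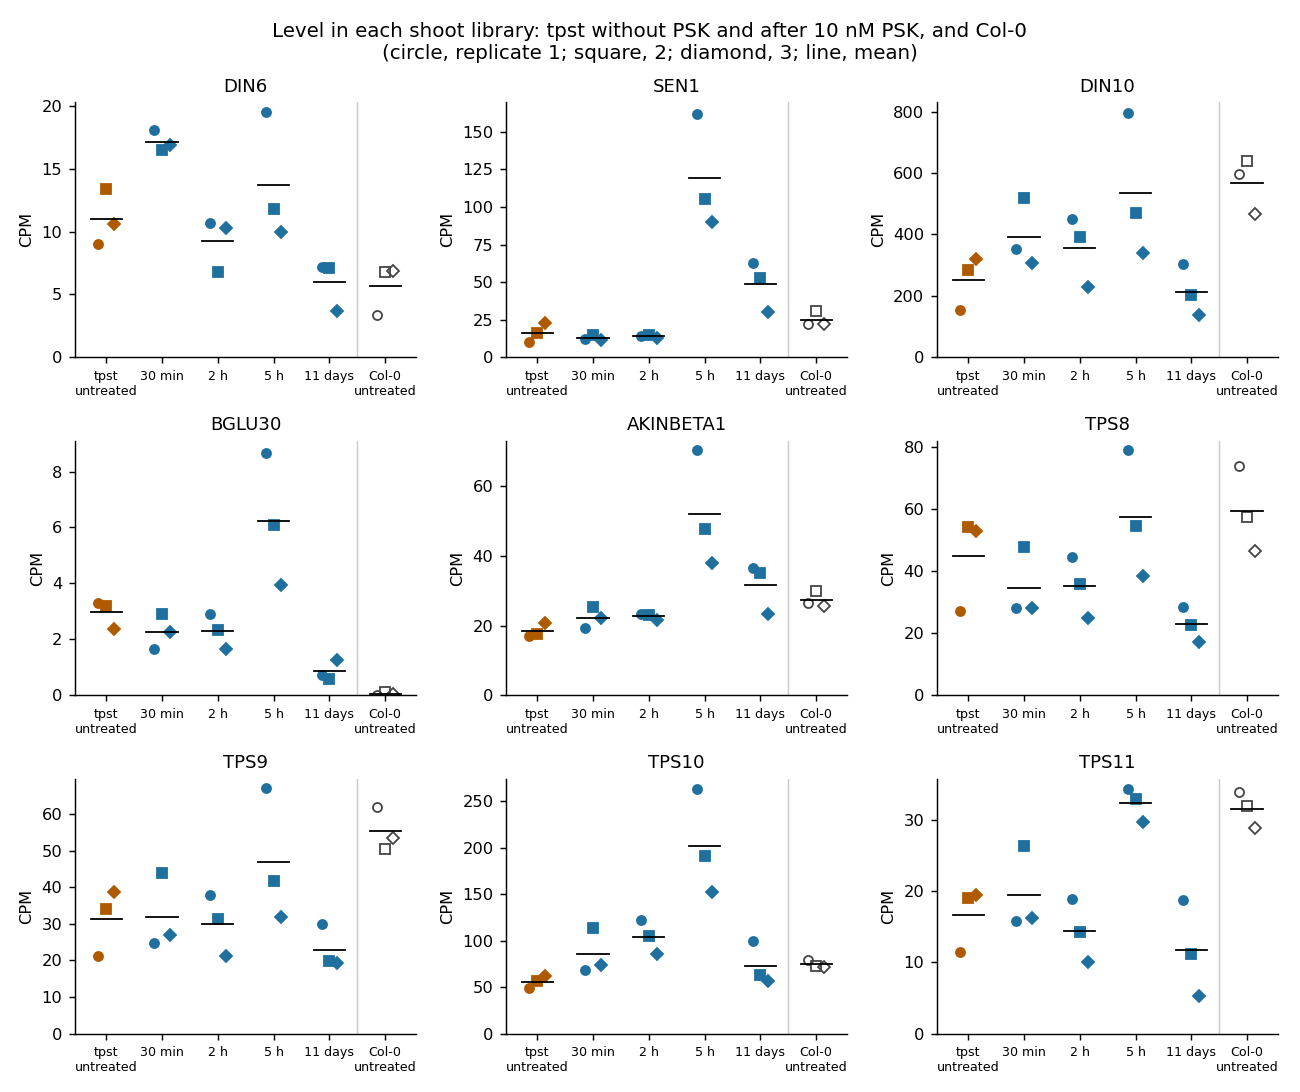
CPM of the 9 genes in every shoot library (y axis, linear, from 0), by group (x axis): untreated tpst, tpst after 30 min, 2 h, 5 h and 11 days of 10 nM PSK, and untreated Col-0. Each symbol is 1 library (circle, square and diamond for replicates 1, 2 and 3) and the line is the mean. SEN1, AKINBETA1 and TPS10 stand highest after 5 h of PSK, while BGLU30 is near 0 in Col-0.

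In shoots, none of the 9 genes was called at the early times. Every comparison with untreated tpst in a tissue shares the same 3 untreated libraries. After 30 min of PSK edgeR called 0 of the 9 (unadjusted p was under 0.05 for 2, and DESeq2 called 0), where 0.61% of 20811 genes were called. DIN6 had 18.1, 16.5 and 16.9 CPM at 30 min against 9.03, 13.4 and 10.6 CPM in untreated tpst, and the groups did not overlap, but the difference of 0.64 ± 0.292 on the log2 scale did not pass (adjusted p = 0.261). After 2 h again 0 of the 9 were called by edgeR (1 had an unadjusted p under 0.05, DESeq2 called 0), where 4.12% of all genes were. TPS10 came nearest, with 122, 105 and 85.6 CPM at 2 h against 48.8, 56.3 and 62.5 CPM in untreated tpst. Its log2 fold change of 0.90 ± 0.249 passed the p threshold (adjusted p = 0.0161) but not the fold of 2, and it was called without replicate 3 of the 2 h shoots. SEN1 had 14.1, 14.6 and 12.9 CPM at 2 h, within the 9.98, 16.4 and 22.8 CPM of untreated tpst.

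After 5 h of PSK, 5 of the 9 genes were called higher in shoots and none lower, where 7.70% of all genes were called higher. The median log2 fold change of the 9 was 1.07, against -0.01 over all genes, and all 9 fitted values were positive. SEN1 had 162, 105 and 90.1 CPM at 5 h against 9.98, 16.4 and 22.8 CPM in untreated tpst. Its log2 fold change of 2.85 ± 0.320 (adjusted p = 3.96e-06) was the largest of the 9, and the lowest library at 5 h lay well above the highest untreated one. AKINBETA1 had 70.5, 47.9 and 38.1 CPM at 5 h against 17.1, 17.6 and 20.9 CPM in untreated tpst, a log2 fold change of 1.49 ± 0.196 (adjusted p = 8.56e-06). DIN10 had 797, 471 and 339 CPM at 5 h against 153, 285 and 321 CPM in untreated tpst. Its groups were just separate, with a log2 fold change of 1.08 ± 0.395 (adjusted p = 0.0324). BGLU30 had 8.67, 6.10 and 3.95 CPM at 5 h against 3.31, 3.21 and 2.39 CPM in untreated tpst, a log2 fold change of 1.07 ± 0.321 (adjusted p = 0.00869). DIN6 had 19.5, 11.8 and 9.97 CPM at 5 h, which overlapped its 9.03, 13.4 and 10.6 CPM in untreated tpst.

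Of the class II TPS genes in shoots, TPS10 alone was called at 5 h. It had 263, 191 and 152 CPM against 48.8, 56.3 and 62.5 CPM in untreated tpst, a log2 fold change of 1.85 ± 0.254 (adjusted p = 2.59e-05). TPS11 had 34.3, 32.9 and 29.7 CPM at 5 h against 11.5, 19.1 and 19.5 CPM in untreated tpst. These groups did not overlap and the p passed (adjusted p = 0.0334), but the log2 fold change of 0.95 ± 0.351 was just under the fold of 2. TPS8, with 78.9, 54.5 and 38.5 CPM at 5 h against 27.2, 54.1 and 52.9 CPM in untreated tpst, and TPS9, with 67.2, 41.6 and 32.0 CPM against 21.3, 34.0 and 38.8 CPM, overlapped their untreated levels. The replicates of the 5 h shoots were ordered alike in every gene: replicate 1 was the highest and replicate 3 the lowest for 9 of 9 genes. In untreated tpst shoots replicate 1 was the lowest for 8 of 9. Without replicate 1 of the 5 h shoots, 3 genes were called (SEN1, AKINBETA1 and TPS10). DIN10 was also lost without replicate 1 or 2 of untreated tpst and in a fit of the 6 libraries alone, and BGLU30 without replicate 3 of it. Of the 11 dawn clock genes, 8 were called higher at 5 h in shoots, and their part in these values was not tested.

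**Figure D2:**
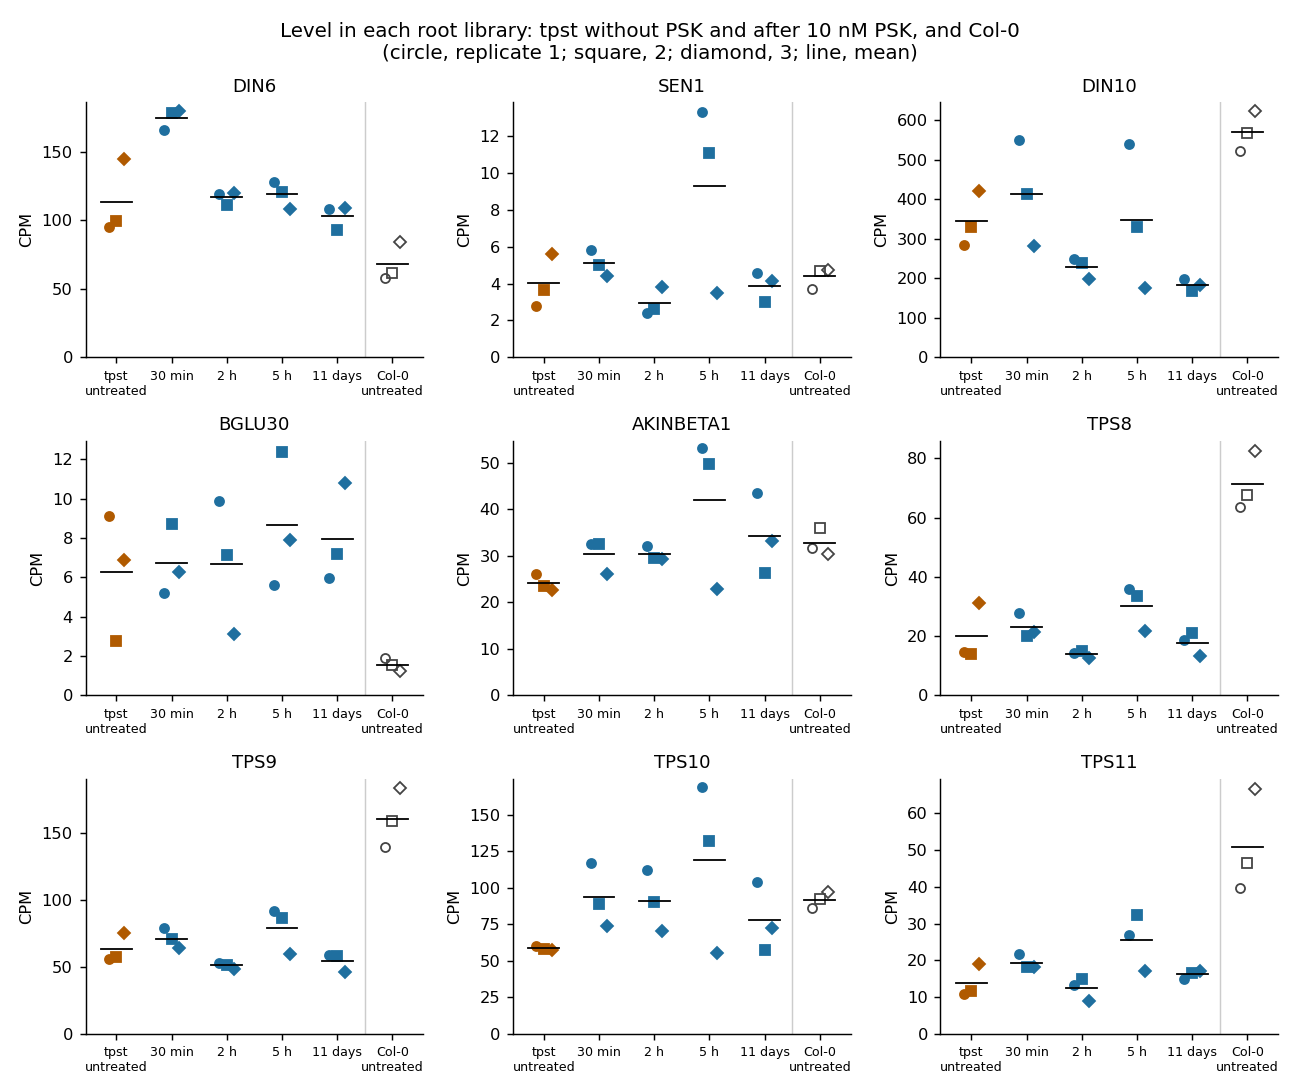
CPM of the 9 genes in every root library (y axis, linear, from 0), by group (x axis): untreated tpst, tpst after 30 min, 2 h, 5 h and 11 days of 10 nM PSK, and untreated Col-0. Each symbol is 1 library (circle, square and diamond for replicates 1, 2 and 3) and the line is the mean. TPS8, TPS9 and TPS11 stand higher in Col-0 than in any tpst group, and replicate 3 at 5 h lies apart from replicates 1 and 2 for SEN1, AKINBETA1 and TPS10.

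In roots, PSK was followed by fewer calls. At 30 min edgeR called 0 of the 9 (1 had an unadjusted p under 0.05, DESeq2 called 0), where 0.454% of 21358 genes were called, and at 2 h 0 of the 9 (0 with an unadjusted p under 0.05, DESeq2 called 0), where 1.3% were. DIN6 had 166, 178 and 180 CPM at 30 min against 95.2, 99.6 and 145 CPM in untreated tpst, a difference of 0.62 ± 0.151 on the log2 scale (adjusted p = 0.063). After 5 h, 2 of the 9 were called higher, where 1.35% of all genes were, and the median log2 fold change of the 9 was 0.60, against 0.00 over all genes. SEN1 had 13.3, 11.1 and 3.48 CPM at 5 h against 2.78, 3.65 and 5.59 CPM in untreated tpst, a log2 fold change of 1.21 ± 0.373 (adjusted p = 0.0337). TPS10 had 169, 132 and 55.5 CPM at 5 h against 59.9, 58.2 and 57.5 CPM in untreated tpst, a log2 fold change of 1.02 ± 0.326 (adjusted p = 0.0434). In both genes the first and second 5 h libraries were above every untreated library and the third was within or below their range. AKINBETA1, with 53.2, 49.7 and 22.9 CPM against 26.1, 23.4 and 22.7 CPM, and TPS11, with 27.0, 32.4 and 17.1 CPM against 10.9, 11.7 and 19.1 CPM, passed the p threshold below the fold of 2, with log2 fold changes of 0.80 ± 0.242 (adjusted p = 0.0323) and 0.87 ± 0.266 (adjusted p = 0.0333). All 9 genes overlapped between 5 h and untreated tpst roots, and how many of all genes did was not counted.

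The root calls at 5 h depended on single libraries. Without the third untreated library, the one with the most green transcripts, 3 genes were called (SEN1, TPS8 and TPS11), and without the third 5 h library 4 were (SEN1, AKINBETA1, TPS10 and TPS11). Without any 1 of the other 4 libraries 0 were called. In a fit of these 6 libraries alone 0 were called as well, where 261 of 20584 genes were. Green transcripts summed to 803, 649 and 1100 CPM in the 5 h roots and to 422, 375 and 2580 CPM in the untreated tpst roots, and 9 of the 11 dawn clock genes were called higher at 5 h. The part of either in these values was not tested.

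The difference between the tissues was tested in a fit of all 36 libraries. At 5 h the response of SEN1 was smaller in roots by 1.68 on the log2 scale (-1.68 ± 0.499, adjusted p = 0.0154), the one of the 9 called in this fit, where 3.71% of 22303 genes were called lower in this contrast. It was not called without the third untreated root library or without replicate 1 of the 5 h shoots. The other 8 had differences of -1.10 to 0.22, and none of them passed in this fit. Without the first 5 h root library DIN10 and TPS10 were called beside SEN1. DIN10 was also called beside SEN1 when root and shoot libraries of the same group and number were paired, where 1525 of 22303 genes were called. At 30 min and at 2 h edgeR called 0 of the 9 tissue differences (0 and 1 with an unadjusted p under 0.05, DESeq2 0 and 0), where 0.00448% and 1.18% of all genes were called.

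**Figure D3:**
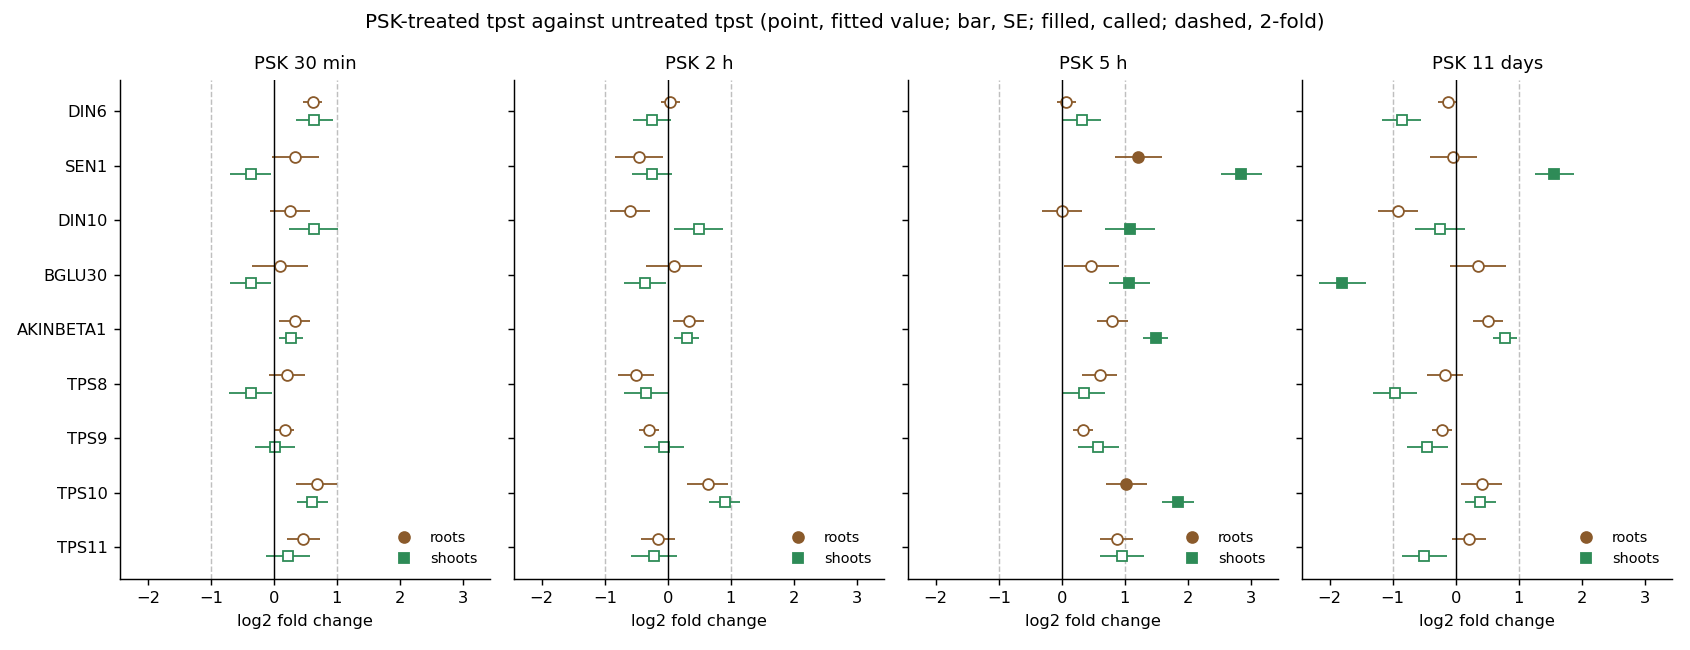
Fitted log2 fold change (x axis) of the 9 genes (y axis) in PSK-treated tpst against untreated tpst at each exposure time, in roots (brown circles) and shoots (green squares). Bars are SE, filled symbols are called changed and dashed lines mark a fold of 2. Called genes are at 5 h, 5 in shoots and 2 in roots, and at 11 days, 2 in shoots.

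After 11 days of PSK, shoots had 1 gene called higher and 1 lower than untreated tpst. SEN1 had 62.5, 52.8 and 29.9 CPM at 11 days against 9.98, 16.4 and 22.8 CPM in untreated tpst, a log2 fold change of 1.56 ± 0.311 (adjusted p = 0.000842). BGLU30 had 0.742, 0.584 and 1.26 CPM at 11 days against 3.31, 3.21 and 2.39 CPM in untreated tpst, a log2 fold change of -1.80 ± 0.368 (adjusted p = 0.000522). Neither gene overlapped between the groups, and both calls were kept when any 1 library was left out. Of all genes 6.96% were called higher and 7.69% lower, so 1 and 1 of 9 is not far from the share at large. DIN6, with 7.20, 7.08 and 3.72 CPM against 9.03, 13.4 and 10.6 CPM, and TPS8, with 28.6, 22.7 and 17.3 CPM against 27.2, 54.1 and 52.9 CPM, passed the p threshold with log2 fold changes of -0.86 ± 0.305 and -0.97 ± 0.350, and AKINBETA1, with 36.6, 35.1 and 23.4 CPM against 17.1, 17.6 and 20.9 CPM, with 0.78 ± 0.196, all below the fold of 2. The median of the 9 was -0.45, against -0.01 over all genes. Without replicate 1 of the 11-day shoots 4 genes were called (DIN6 and TPS8 as well), and without replicate 1 of untreated tpst 3 were (TPS8 as well). Of the 11 dawn clock genes, 8 were called higher at 11 days, and their part was not tested.

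In roots edgeR called 0 of the 9 genes at 11 days (1 had an unadjusted p under 0.05, DESeq2 called 0), where 1.91% of all genes were called. DIN10 came nearest, with 198, 169 and 183 CPM at 11 days against 285, 330 and 421 CPM in untreated tpst. The groups did not overlap, but the log2 fold change of -0.92 ± 0.320 did not pass (adjusted p = 0.0682). SEN1 had 4.57, 2.98 and 4.12 CPM at 11 days against 2.78, 3.65 and 5.59 CPM in untreated tpst roots. In the test of the tissue difference at 11 days, the response of SEN1 was lower in roots (-1.62 ± 0.512, adjusted p = 0.0255) and that of BGLU30 was higher (2.13 ± 0.615, adjusted p = 0.0141), where 3.73% of all genes were called lower and 2.69% higher. BGLU30 in roots had 5.95, 7.17 and 10.8 CPM at 11 days against 9.13, 2.78 and 6.87 CPM in untreated tpst. The call of SEN1 was lost without the third untreated root library, and also without the second 11-day root library or the first untreated or first 11-day shoot library, whereas that of BGLU30 was kept in all 12 such fits.

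Neighbouring exposure times were compared to place the changes in time. In shoots, edgeR called 0 of the 9 between 2 h and 30 min (1 had an unadjusted p under 0.05, DESeq2 called 0), where 0.995% of all genes were called. Between 5 h and 2 h, 4 of the 9 were called higher, where 3.82% of all genes were. They were SEN1 with a log2 fold change of 3.10 ± 0.325 (adjusted p = 9.34e-06), BGLU30 with 1.43 ± 0.327 (adjusted p = 0.00245), AKINBETA1 with 1.19 ± 0.194 (adjusted p = 0.000213) and TPS11 with 1.17 ± 0.355 (adjusted p = 0.0202). None of the 4 overlapped between the times, and without replicate 1 of the 5 h shoots SEN1 and BGLU30 were the 2 still called. TPS10 passed the p threshold with 0.95 ± 0.247 (adjusted p = 0.00839). These comparisons share the 5 h libraries with those above and below and are not independent of them.

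At 11 days, 8 of the 9 genes were called lower in shoots than at 5 h, where 1.78% of all genes were called lower. Of these groups only the 5 h plants had fresh medium, so exposure time and the medium cannot be told apart here. The median log2 fold change of the 9 was -1.32, against -0.01 over all genes. None of the 9 overlapped between the times. How many of all genes did not was not counted, so this is not a result about the 9. AKINBETA1 was just separate, at no more than 36.6 CPM at 11 days and no less than 38.1 CPM at 5 h. BGLU30 differed most, with 0.742, 0.584 and 1.26 CPM at 11 days against 8.67, 6.10 and 3.95 CPM at 5 h (log2 fold change -2.87 ± 0.363, adjusted p = 8.23e-05). TPS10 had 99.7, 63.3 and 56.8 CPM at 11 days against 263, 191 and 152 CPM at 5 h (-1.46 ± 0.250, adjusted p = 0.00177). TPS11 had 18.8, 11.2 and 5.34 CPM against 34.3, 32.9 and 29.7 CPM (-1.45 ± 0.358, adjusted p = 0.0138). SEN1, DIN6, DIN10, TPS8 and TPS9 were called with -1.3, -1.18, -1.33, -1.32 and -1.02. AKINBETA1 passed the p threshold alone, with -0.72 ± 0.191 (adjusted p = 0.0172). The dawn clock genes had a median log2 fold change of 0.06 between these times, with a range of -0.85 to 0.84, and their part in these values was not tested. LHY, one of them, averaged 268 CPM at 11 days and 180 CPM at 5 h, without overlap. The count was 3 without replicate 1 of the 5 h shoots, and 4 without replicate 2 or without replicate 3 of the 11-day shoots. In a fit of these 6 libraries alone it was 3, where 404 of 20059 genes were called. With no filter on low counts 6 were called, without DIN10 and TPS9, where 672 of 26754 genes were. BGLU30 and TPS10 were called in each of these.

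In roots, between 2 h and 30 min edgeR called 0 of the 9 (5 had an unadjusted p under 0.05, DESeq2 called 0), where 0.00468% of all genes were called. SEN1 was called higher at 5 h than at 2 h, with 13.3, 11.1 and 3.48 CPM at 5 h against 2.38, 2.61 and 3.79 CPM at 2 h (log2 fold change 1.66 ± 0.380, adjusted p = 0.0482), where 0.183% of all genes were called higher. These groups overlapped, and 0 of the 9 were called without any 1 of 5 of the 6 libraries, while 3 (SEN1, TPS8 and TPS11) were without the third 5 h library. TPS8 had 35.8, 33.4 and 21.6 CPM at 5 h against 14.2, 15.1 and 12.6 CPM at 2 h. It did not overlap, and its log2 fold change of 1.11 ± 0.285 had an adjusted p of 0.0753. Between 11 days and 5 h edgeR called 0 of the 9 in roots (5 had an unadjusted p under 0.05, DESeq2 called 0), where 0% of all genes were called. Without the third 5 h library SEN1 was called.

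Next, the genotypes were compared without PSK. In roots, untreated tpst had 3 of the 4 class II TPS genes called lower and BGLU30 higher than Col-0, where 3.49% of all genes were called lower and 2.95% higher. TPS8 had 14.7, 14 and 31.1 CPM in tpst roots against 63.7, 67.6 and 82.5 CPM in Col-0 roots, a log2 fold change of -1.84 ± 0.285 (adjusted p = 0.000501). TPS11 had 10.9, 11.7 and 19.1 CPM in tpst roots against 39.7, 46.6 and 66.5 CPM in Col-0 roots, a log2 fold change of -1.87 ± 0.269 (adjusted p = 0.000251). TPS9 had 56.3, 57.6 and 75.5 CPM in tpst roots against 140, 159 and 184 CPM in Col-0 roots, a log2 fold change of -1.35 ± 0.159 (adjusted p = 4.17e-05). In all 3 genes the third tpst library, which had the most green transcripts, was the one nearest to Col-0. TPS10, with 59.9, 58.2 and 57.5 CPM against 86.3, 92.5 and 97.0 CPM, did not overlap either, but its log2 fold change of -0.65 ± 0.325 did not pass (adjusted p = 0.171). BGLU30 had 9.13, 2.78 and 6.87 CPM in tpst roots against 1.88, 1.54 and 1.22 CPM in Col-0 roots, a log2 fold change of 2.01 ± 0.498 (adjusted p = 0.0103). DIN6 had 95.2, 99.6 and 145 CPM against 57.6, 61.7 and 84.3 CPM, with 0.74 ± 0.152 (adjusted p = 0.00292), below the fold of 2. The 4 calls were kept when any 1 library was left out. The dawn clock genes had a median log2 fold change of -0.03 in this comparison, with a range of -0.58 to 0.26. Of the 26 green tissue genes 12 were called higher in tpst roots, where they summed to 422, 375 and 2580 CPM, against 355 to 376 CPM in Col-0 roots. Without the third tpst library the log2 fold change of TPS8 was the lowest of the 6 fits, at -2.30.

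In shoots, untreated tpst had BGLU30 called higher and DIN10 called lower than Col-0, where 4.30% of all genes were called higher and 1.26% lower. BGLU30 had 77, 80 and 69 counts in the tpst shoots against 0, 3 and 1 counts in the Col-0 shoots. Its summed ratio was 52.2, with an exact 95% interval of 20.1 to 193 that covers counting error only. The edgeR test gave it a log2 fold change of 5.61 (adjusted p = 2.94e-06). DIN10 had 153, 285 and 321 CPM in tpst shoots against 598, 638 and 467 CPM in Col-0 shoots, a log2 fold change of -1.16 ± 0.395 (adjusted p = 0.0472). The groups did not overlap, yet the call was lost when any 1 of the 6 libraries was left out, so that BGLU30 was the one of these 2 that held. DIN6 had 9.03, 13.4 and 10.6 CPM against 3.37, 6.78 and 6.88 CPM, a log2 fold change of 0.95 ± 0.308 (adjusted p = 0.0350), just below the fold of 2, and was called in 3 of the 6 fits that left out a library. TPS8 had 27.2, 54.1 and 52.9 CPM in tpst shoots against 73.7, 57.5 and 46.5 CPM in Col-0 shoots, which overlapped. TPS9 and TPS11 did not overlap, with 21.3, 34.0 and 38.8 CPM against 61.8, 50.5 and 53.4 CPM and 11.5, 19.1 and 19.5 CPM against 33.9, 31.9 and 28.8 CPM, but did not pass (-0.81 ± 0.320 and -0.91 ± 0.351, adjusted p = 0.0825 and 0.0755). AKINBETA1 had 17.1, 17.6 and 20.9 CPM in tpst shoots against 26.5, 30.1 and 25.7 CPM in Col-0 shoots, without overlap, and passed the p threshold below the fold of 2 (-0.57 ± 0.196, adjusted p = 0.0451). In this comparison 3 of the 11 dawn clock genes were called higher in tpst, and the part of this was not tested.

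The test of the genotype effect between tissues called 2 of the 9 genes lower in roots than in shoots, where 4.02% of all genes were. TPS8 differed by -1.40 ± 0.454 (adjusted p = 0.0328), and this call was kept in 5 of the 12 fits that left out 1 library. BGLU30 differed by -3.59 ± 0.994 (adjusted p = 0.0124), a fitted value that rests on the 4 counts in Col-0 shoots. For TPS9 and TPS11 the difference between tissues was -0.50 ± 0.363 and -0.92 ± 0.451, and neither passed.

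**Figure D4:**
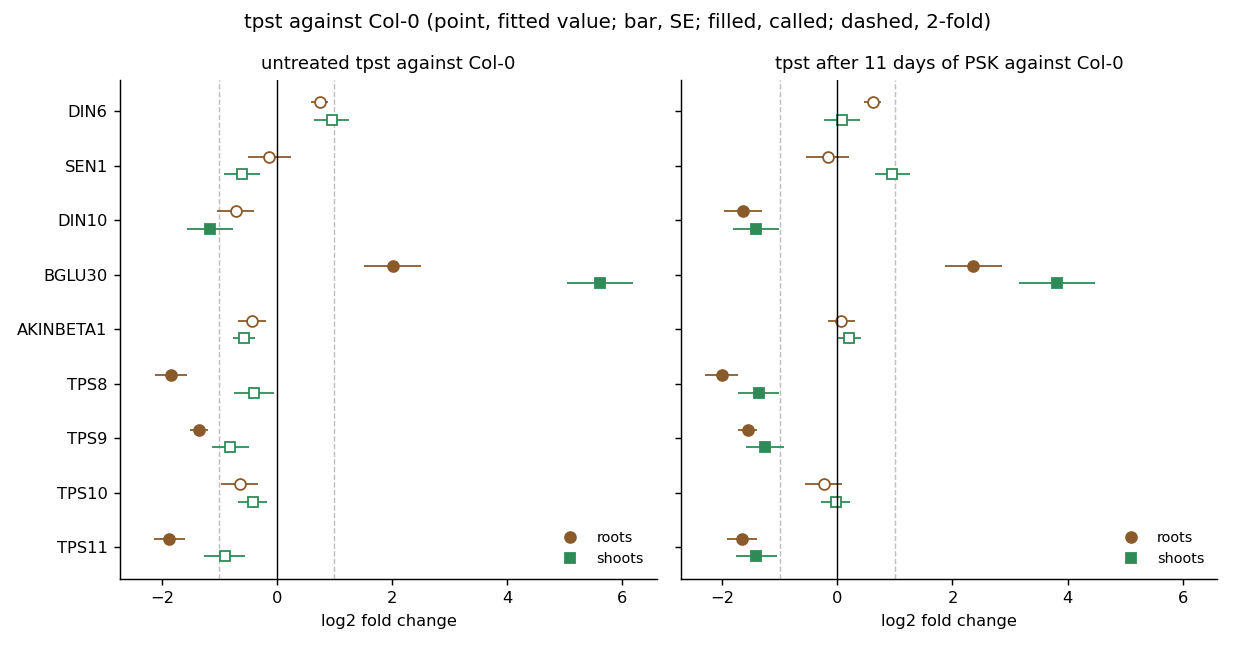
Fitted log2 fold change (x axis) of the 9 genes (y axis) against Col-0, for untreated tpst (left) and tpst after 11 days of PSK (right), in roots (brown circles) and shoots (green squares). Bars are SE, filled symbols are called changed and dashed lines mark a fold of 2. TPS8, TPS9 and TPS11 are called lower in roots of both, while BGLU30 is called higher in each of the 4 comparisons.

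Seedlings of tpst raised in PSK for 11 days were also set against Col-0. In roots 4 of the 9 were called lower and 1 higher, where 4.19% and 3.62% of all genes were. TPS8 had 18.6, 21.1 and 13.4 CPM at 11 days against 63.7, 67.6 and 82.5 CPM in Col-0 roots (log2 fold change -2.01 ± 0.287, adjusted p = 0.00021). TPS9, TPS11 and DIN10 were called lower with -1.56 ± 0.16, -1.66 ± 0.265 and -1.64 ± 0.325, and BGLU30 higher with 2.36 ± 0.495. None of these 5 overlapped with Col-0, and each call was kept when any 1 library was left out. Of the 26 green tissue genes 10 were called higher in the 11-day roots, where they summed to 681 to 1130 CPM, against 355 to 376 CPM in Col-0 roots, and their part was not tested. In shoots 4 were again called lower and 1 higher, where 9.16% and 10.5% of all genes were. TPS11 had 18.8, 11.2 and 5.34 CPM at 11 days against 33.9, 31.9 and 28.8 CPM in Col-0 shoots (-1.41 ± 0.358, adjusted p = 0.00398). TPS8 had 28.6, 22.7 and 17.3 CPM against 73.7, 57.5 and 46.5 CPM (-1.37 ± 0.352, adjusted p = 0.00442), TPS9 had 29.9, 19.9 and 19.2 CPM against 61.8, 50.5 and 53.4 CPM (-1.26 ± 0.325, adjusted p = 0.00443), and DIN10 had 302, 202 and 136 CPM against 598, 638 and 467 CPM (-1.41 ± 0.398, adjusted p = 0.0081). BGLU30 had 20, 16 and 28 counts against 0, 3 and 1 counts in Col-0 shoots, a summed ratio of 14.9 with an exact 95% counting interval of 5.54 to 56.3. SEN1 had 62.5, 52.8 and 29.9 CPM against 22.2, 30.5 and 22.3 CPM, which overlapped (0.95 ± 0.304, adjusted p = 0.0156). The dawn clock genes had a median log2 fold change of 2.01 in roots and 2.44 in shoots in these comparisons, and their part was not tested.

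Over the 36 libraries, the 9 genes moved in sets. After the mean of each tissue was removed, log2 CPM of TPS8 and TPS9 had a Pearson r of 0.95, TPS8 and TPS11 of 0.91, and TPS9 and TPS11 of 0.91, and DIN10 followed them with 0.79, 0.87 and 0.80. TPS10 was apart from the other class II genes, with 0.38, 0.43 and 0.50 to TPS8, TPS9 and TPS11. It lay nearer to AKINBETA1 (0.84) and SEN1 (0.65), and AKINBETA1 and SEN1 had 0.86. DIN6 and BGLU30 had 0.67 with each other and -0.38 to 0.32 with the rest. In roots alone BGLU30 had -0.72 to -0.54 with TPS8, TPS9, TPS11 and DIN10, against -0.24 to -0.08 in shoots. DIN6 had -0.49 to -0.42 with TPS8, TPS9 and TPS11 in roots, against 0.07 to 0.24 in shoots. These sets were seen in the data and are descriptions. The 36 points share their groups of 3, and all members of a library share its depth and its clock state.

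**Figure D5:**
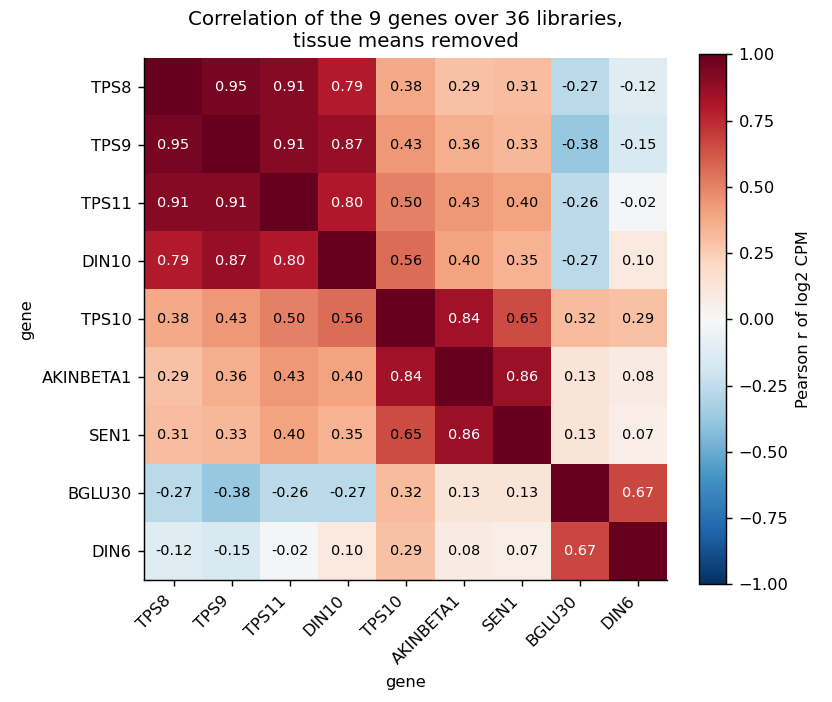
Pearson r of log2 CPM between the 9 genes (both axes) over 36 libraries after the mean of each tissue was removed, with red for positive and blue for negative values. TPS8, TPS9, TPS11 and DIN10 have 0.79 to 0.95 with each other, and AKINBETA1 has 0.84 with TPS10 and 0.86 with SEN1.

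Among 16154 other genes with a mean of at least 5 CPM, the genes most like each of the 9 over the 36 libraries were named by the same measure. For TPS8 they were AT3G49790 (0.93) and AT5G14120, a major facilitator protein (0.91), and for TPS9 AT3G49790 (0.91) and AT3G15450 (0.89). TPS11 had AT5G14120 (0.89) and SDP1, a lipase of oil breakdown (0.87). TPS10 had AT5G18630, an alpha/beta-hydrolase (0.92), and AT1G27750 (0.89). SEN1 had ACBP3, an acyl-CoA-binding protein (0.90), and AT2G46220 (0.89), and AKINBETA1 had AT2G46260, a BTB/POZ protein (0.92), and XYLA, a xylose isomerase (0.91). DIN10 had BZIP63, a bZIP factor (0.86), and AT3G15630 (0.86). BGLU30 had OSM34, an osmotin (0.91), and AT2G21850 (0.88), while DIN6 had AT5G43580, a protease inhibitor (0.81), and SAUR76 (0.80). Some values differed by tissue. In shoots and roots alone, AT2G46220 had 0.96 and 0.64 with SEN1, and AT2G21850 had 0.93 and 0.64 with BGLU30. The order was the reverse for AT3G15630 with DIN10 (0.78 and 0.94) and SDP1 with TPS11 (0.79 and 0.95).

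Other genes of the same pathways were followed alongside. Of 22 other low-sugar and dark-induced genes, 21 were tested in shoots, and 5 were called higher and 1 lower at 5 h of PSK, where 7.70% and 9.22% of all genes were, with a median log2 fold change of 0.47. BXL1, a beta-xylosidase, was called higher with 1.93 ± 0.319 (adjusted p = 0.000173), ATG8E of autophagy with 1.63 ± 0.221 (adjusted p = 1.47e-05), and LKR of lysine breakdown with 1.02 ± 0.131 (adjusted p = 3.72e-06). BT2, a BTB/TAZ protein that is known to fall with sugar, was called lower with -1.36 ± 0.371 (adjusted p = 0.00707). At 11 days in shoots 4 of the 21 were called lower and none higher, where 7.69% and 6.96% of all genes were, with BT2 at -2.92 ± 0.396 (adjusted p = 3.77e-05). In roots at 5 h 3 of 21 were called higher, where 1.35% of all genes were. They were BXL1 with 1.59 ± 0.213 (adjusted p = 0.000258), ATG8E with 1.3 ± 0.246 (adjusted p = 0.00272) and LKR with 1.00 ± 0.108 (adjusted p = 3.95e-05).

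Of 18 other trehalose pathway genes, 14 were tested in shoots, with 1 called higher and 3 lower at 5 h, where 7.70% and 9.22% of all genes were, and a median log2 fold change of -0.52. In roots at 5 h 2 of the 15 tested were called higher, where 1.35% of all genes were, and the median was -0.10. TRE1, the trehalase, was the 1 called higher in shoots at 5 h, with 2.26 ± 0.16 (adjusted p = 2.73e-09). The 3 called lower in these shoots were the trehalose-phosphate phosphatase genes TPPE, TPPD and TPPB. They had -1.84 ± 0.294 (adjusted p = 5.75e-05), -1.47 ± 0.320 (adjusted p = 0.00077) and -1.03 ± 0.147 (adjusted p = 1.1e-05). TRE1 was called at each PSK time in shoots, with 1.01 at 30 min, 1.36 at 2 h and 1.69 at 11 days. In roots TRE1 had 0.18 ± 0.251 at 5 h and was not called (adjusted p = 0.656). Among 6 other SnRK1 subunit genes, 1 was called in shoots at 5 h, where 7.70% of all genes were called higher. It was KING1, a gamma subunit, with 1.43 ± 0.123 (adjusted p = 2.9e-08), and KING1 had 0.95 ± 0.189 in roots, below the fold of 2. Of 4 sugar-induced genes, 2 were called higher at 11 days in shoots, where 6.96% of all genes were. They were MYB75, a regulator of anthocyanin synthesis, with 1.69 ± 0.307 (adjusted p = 0.000171), and GPT2, a glucose-phosphate transporter of plastids, with 1.53 ± 0.373 (adjusted p = 0.00384). All 4 were called higher in untreated tpst than in Col-0 shoots, where 4.30% of all genes were, with a median log2 fold change of 1.77.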

How the data were processed

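Shoots and roots of 12 groups were measured by poly(A) RNA-seq, 3 biological replicates each. The authors aligned read pairs to TAIR10 with HISAT2 2.0.5 and counted them with featureCounts 1.5.0-p3. The deposited table holds a whole-number count for every gene and library, without normalization. A deposited FPKM table was not used. Every per-sample column of the count table was matched to a sample by its label.

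For each tissue, 18 libraries in 6 groups were fitted with edgeR 4.0.16 (R 4.3.3; filterByExpr, minimum of 10 counts; TMM; robust quasi-likelihood test). A fit of all 36 libraries gave the tissue differences, RPKM and the correlations (log2 CPM with a prior count of 2). P-values were adjusted over all genes tested with the Benjamini-Hochberg method, and a call needed a 2-fold difference together with an adjusted p below 0.05. SE were derived from the log2 fold change and the F statistic. CPM come from the fit of a tissue unless stated. All 9 genes passed the filter in each fit. The code was tested on simulated data.

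The genes and lists were chosen with earlier results of these data known. Of each list up to 4 genes called in most of the 8 comparisons of PSK with untreated tpst were named, and for each of the 9 genes the 2 most correlated others. Alternatives were RLE normalization, no filter, a stricter filter (at least 1 CPM in at least 9 libraries), a replicate block, DESeq2 1.42.0, the 6 libraries compared alone, no fold minimum and leaving out each library.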

Additional observations from a re-analysis of the deposited data

Results flagged for a closer look

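Of the 9 genes, 5 responses in 3 genes differed between roots and shoots by the test of the difference itself, with the libraries taken as unpaired. The response of SEN1 to PSK was lower in roots than in shoots at 5 h (-1.68 ± 0.499 on the log2 scale, adjusted p = 0.0154, where 3.71% of all genes were called lower) and at 11 days (-1.62 ± 0.512, adjusted p = 0.0255, where 3.73% were). These calls were kept in 10 and 8 of the 12 fits that left out 1 library. The response of BGLU30 to 11 days of PSK was higher in roots (2.13 ± 0.615, adjusted p = 0.0141, where 2.69% were called higher), and was kept in 12 of 12. The effect of the tpst genotype was lower in roots for BGLU30 (-3.59 ± 0.994, adjusted p = 0.0124) and for TPS8 (-1.40 ± 0.454, adjusted p = 0.0328), where 4.02% of all genes were called lower. The value of BGLU30 rests on 4 counts in Col-0 shoots, and the call of TPS8 was kept in 5 of 12 fits.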

How the results depend on the processing

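The 9 genes had 47 calls over the 24 comparisons. All 47 kept their direction, 37 were called in every fit but those that left out a library, 30 in every fit that left out 1 library, and 30 in both. Of 3087 single values under all alternatives, 119 changed sign, each with no call in either fit. RLE normalization and the stricter filter changed no call.

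With no fold minimum, marker genes called in shoots numbered 1 at 2 h, 5 at 11 days and 4 between untreated tpst and Col-0. Of all 20811 genes tested in shoots, 5443, 10512 and 5089 were called in these comparisons. In roots at 5 h 4 marker genes were called, and 4068 of all 21358 genes were. With no filter the number of marker genes called was 1 for the genotype in shoots, where 1154 of 26754 genes were called. In roots it was 1 at 5 h and 0 between 5 h and 2 h, where 471 and 43 of 27443 genes were called. With the replicate block these 3 counts of marker genes were 1, 0 and 0, where 1252, 533 and 61 of all genes were called. Beyond these, DIN10 at 5 h in shoots was lost, no other call was, and TPS8 at 11 days in shoots was gained. In fits of the 6 libraries alone the same 3 counts were 1, 0 and 0, where 1035, 261 and 6 of all genes were called. The count in shoots between 11 days and 5 h was 3, where 404 of 20059 genes were called. DIN10 at 5 h in shoots was lost in these fits too. DESeq2 called 3 marker genes in roots between 5 h and 2 h, where 108 of 20517 genes were called. Each root library was also paired with its same-numbered shoot library (replicate block of group by replicate). In that fit 2 marker genes (SEN1 and DIN10) differed between tissues at 5 h, where 1525 of 22303 genes were called. The numbers were not taken as pairs: same-numbered libraries of different groups had a median correlation of their deviations of 0.06 in shoots and 0.10 in roots, against -0.02 and -0.04 for libraries of unlike number, and 14 and 23 of 45 pairs were over 0.1. Root with shoot libraries of the same group and number had a median of 0.06 against -0.03, with 6 of 18 pairs over 0.1. Even so, 16 of 18 root libraries correlated best with the same-numbered one of the 3 shoot libraries of their group. The methods of the study describe seedlings whose shoot and root were separated for RNA, without saying that the numbers match across tissues. These values do not decide whether the numbers mark pairs, and the main tests of roots minus shoots treated the libraries as unpaired. If the numbers do mark pairs, those tests left the pairing out.

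Leaving out 1 library gave these ranges of genes called. In shoots they were 0 to 1 at 2 h, 3 to 5 at 5 h, 2 to 4 at 11 days, 1 to 2 for untreated tpst against Col-0, 5 to 6 for 11 days of PSK against Col-0, 2 to 5 between 5 h and 2 h and 3 to 8 between 11 days and 5 h. In roots they were 0 to 4 at 5 h, 0 to 3 between 5 h and 2 h and 0 to 1 between 11 days and 5 h. For roots minus shoots they were 0 to 3 at 5 h, 1 to 2 at 11 days and 1 to 2 for the genotype. The share of all genes called in each of these fits is not given here.

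With 3 libraries per group, the p-values rest on a spread between pooled samples that is estimated over all groups of a fit. It is not the spread of the compared groups alone. BGLU30 in Col-0 shoots, at 0 to 3 counts, is limited by depth.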

Other observations

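The deviations of the 9 genes from their group means were compared between root and shoot libraries of the same group and number, over 18 pairs. The Pearson r was 0.64 for DIN10, 0.61 for TPS10, 0.53 for AKINBETA1, 0.51 for SEN1 and 0.50 for TPS9, and 0.14 to 0.34 for TPS8, DIN6, BGLU30 and TPS11. These are descriptions over pairs that share their groups. Over all genes, 16 of 18 root libraries had their highest correlation with the shoot library of the same group and number. The study describes seedlings whose shoot and root were separated for RNA, but does not state that a number marks the same plants in both tissues.

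Replicate 1 was the highest of the 3 libraries for 8 of the 9 genes in shoots after 2 h and after 11 days of PSK, and replicate 3 was the lowest for 8 of 9 in each. In roots after 5 h, replicate 1 was the highest for 7 and replicate 3 the lowest for 8 of the 9. In Col-0 roots replicate 3 was the highest for 7 of 9.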
